A study of Rattus norvegicus with 12 samples.

Results

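The autophagy machinery is the set of gene products that build, fill and tag the autophagosome, the double membrane that wraps cytoplasm and carries it to the lysosome. The set was taken as a list of 35 rat genes by name, and a probe was named for 31 of them here, through 46 of the 30367 gene probes on the array. All 31 were bright enough to test, among 20849 genes tested in all. Atg13, Pik3r4, Atg2b and Atg4b were not analysed here.

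Autophagy starts when the ULK1 kinase complex is released from inhibition by mTORC1, the nutrient sensor that is active in fed cells. A lipid kinase complex built on Beclin 1 then marks the site, ATG9 vesicles and ATG2 bring membrane, and a pair of ubiquitin-like conjugation systems attach the Atg8 proteins (LC3 and GABARAP) to it, where cargo receptors such as p62 dock. Long-lived sensory neurons depend on this pathway to clear worn proteins and organelles along their axons, and much of its regulation is by phosphorylation and lipid attachment, which an RNA measurement does not see.

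Total RNA of the L6 dorsal root ganglion, which holds the cell bodies of sensory neurons with their satellite glia and Schwann cells, was hybridised to 12 one-colour Agilent rat arrays. The rats were male Fischer 344 animals in 3 groups of 4. In young_AL the animals were aged 6 months and ate ad libitum. The group old_AL was 25 to 28 months old and also fed ad libitum. The group old_CR was of the same old age, had been given food on only 3 days a week from 6 weeks of age, and took in about 40% less than old_AL. Values are log2 signals relative to the 75th percentile of the same array, so 0 is a gene at that percentile, and levels of different probes are not compared.

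The array old_AL 1 stood apart from the others in readouts of the array as a whole. Its 75th percentile was 7662 intensity units against 2634 to 3110 on the other 11 arrays, the share of spots well above background was 71.6% where the others had 78.8% to 84.1%, and 4026 of its spots were non-uniform against 1 to 208. It was left out of the values below unless 12 arrays are named. The array old_AL 4 also had a narrower spread, with a 75th percentile 34.5 times the 25th against 60.5 to 72.8 times on the other 10 arrays analysed. All young_AL arrays were on slide 1 and both old groups on slide 2, so the effects of slide and age cannot be told apart. On slide 2, old_AL filled row 1 and old_CR row 2, so diet and row cannot be told apart either. As a check of the tissue, 14 of 16 sensory neuron markers were measured, with a mean log2 signal of 4.932 to 4.965 in young_AL, 4.873 to 4.928 in old_AL and 4.864 to 4.95 in old_CR. Every old_AL array was thus below every young_AL array. At an adjusted p of 0.05 (limma), 3 of the 14 were lower and 0 higher in old_AL against young_AL. In old_CR against young_AL, 2 were lower and 0 higher. Of all 20849 genes, 260 and 339 passed as lower in these comparisons. The 15 macrophage markers, all measured, had a mean of -2.20 to -1.76 in young_AL, -1.22 to -0.82 in old_AL and -1.57 to -1.13 in old_CR. In bulk RNA, fewer cells of a type and less RNA per cell cannot be told apart.

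Differences of the autophagy machinery with age or diet were mostly small in size. The share of its genes with a low unadjusted p was near that of all genes. None of the 31 genes passed an adjusted p of 0.05 in any of the 3 comparisons (limma, Benjamini-Hochberg over all genes tested), and none did with all 12 arrays. Over all genes tested, 3.24% passed in old_AL against young_AL, 1.06% in old_CR against old_AL and 2.41% in old_CR against young_AL. With 12 arrays those shares were 0.0191%, 0.00478% and 0.0191%. At an unadjusted p under 0.05 there were 7, 7 and 6 of the 31 genes, or 22.6%, 22.6% and 19.4%, against 23.1%, 26.4% and 18.3% of all genes tested.

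For the brightest probe of each gene and this scaling, the arrays put bounds on what was missed. The 95% interval of the difference lay within 1.5-fold either way for 29 of the 31 genes in the age comparison (old_AL against young_AL), for 29 in the diet comparison (old_CR against old_AL) and for 30 between old_CR and young_AL. Ulk2 was the exception in all 3, joined by Tfeb in the first 2. Some dimmer probes had wider intervals. In the age comparison these were -1.42 to 0.45 log2 units for the dimmest Gabarapl2 probe and -0.19 to 1.05 for the second Atg14 probe. Median centring moved the median of all genes by -0.10 in the age comparison and 0.10 in the diet comparison, which the intervals do not include. The median absolute difference was 0.074, 0.048 and 0.052 log2 units, against 0.11, 0.11 and 0.087 over all genes tested. The median signed difference was -0.016, 0.012 and 0.012, against 0.035, -0.054 and -0.017 over all genes. The median gene of the set spanned 0.24 log2 units from its lowest to its highest of the 11 arrays, and the median gene tested spanned 0.40. The set also varied less within groups, with a median within-group SD of 0.071 against 0.10 over all genes tested. Its smaller differences were therefore not shown to be small relative to that spread. The narrowest member was Map1lc3b, which spanned 0.10, and the widest apart from Ulk2 was Tfeb, which spanned 0.95.

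**Figure D1:**
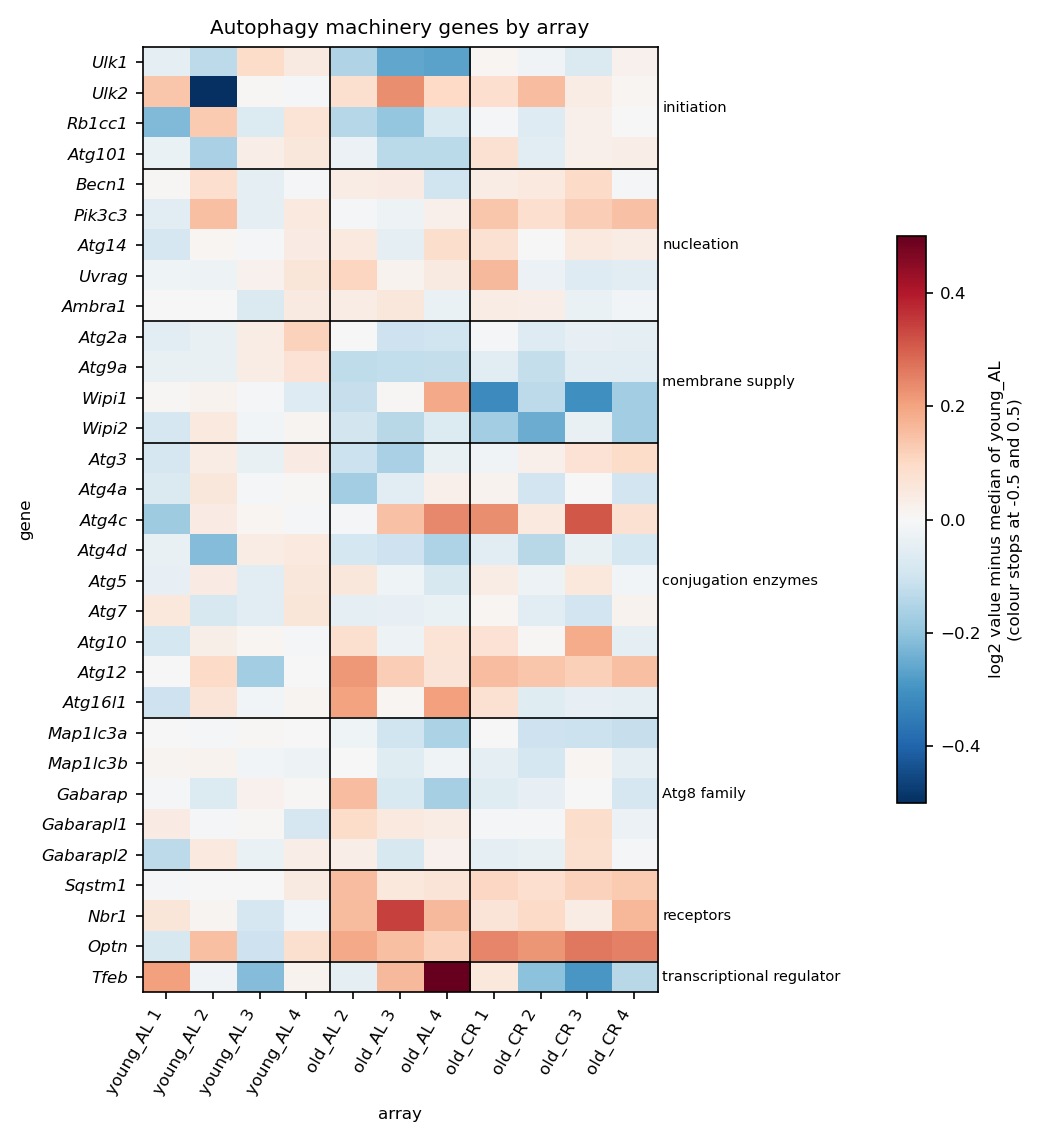
Each row is a gene of the autophagy machinery, ordered by step, and each column an array; colour gives the log2 value minus the median of the 4 young_AL arrays, and stops at -0.5 and 0.5. Most cells are pale; Ulk1 is low on the 3 old_AL arrays, Optn is high on the 4 old_CR arrays, and Ulk2 is far below the rest on young_AL 2.

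Genes whose arrays did not overlap between groups were also counted. In old_AL against young_AL, 5 of 31 genes (16.1%) had groups that did not overlap, against 19.6% of all genes. Ulk1, Atg9a and Map1lc3a were lower in old_AL and Sqstm1 and Nbr1 higher. In old_CR against old_AL there were 7 (22.6%), against 23.5% of all genes, with Ulk1, Rb1cc1, Pik3c3, Atg9a, Atg3 and Optn higher in old_CR and Wipi1 lower. In old_CR against young_AL there were 6 (19.4%), against 15.8% of all genes, with Atg4c, Atg12, Sqstm1 and Optn higher in old_CR and Atg9a and Wipi1 lower. The shares in the set were near those of the array as a whole. The comparisons share their groups, so a gene's place in more than 1 of these lists is not independent.

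**Figure D2:**
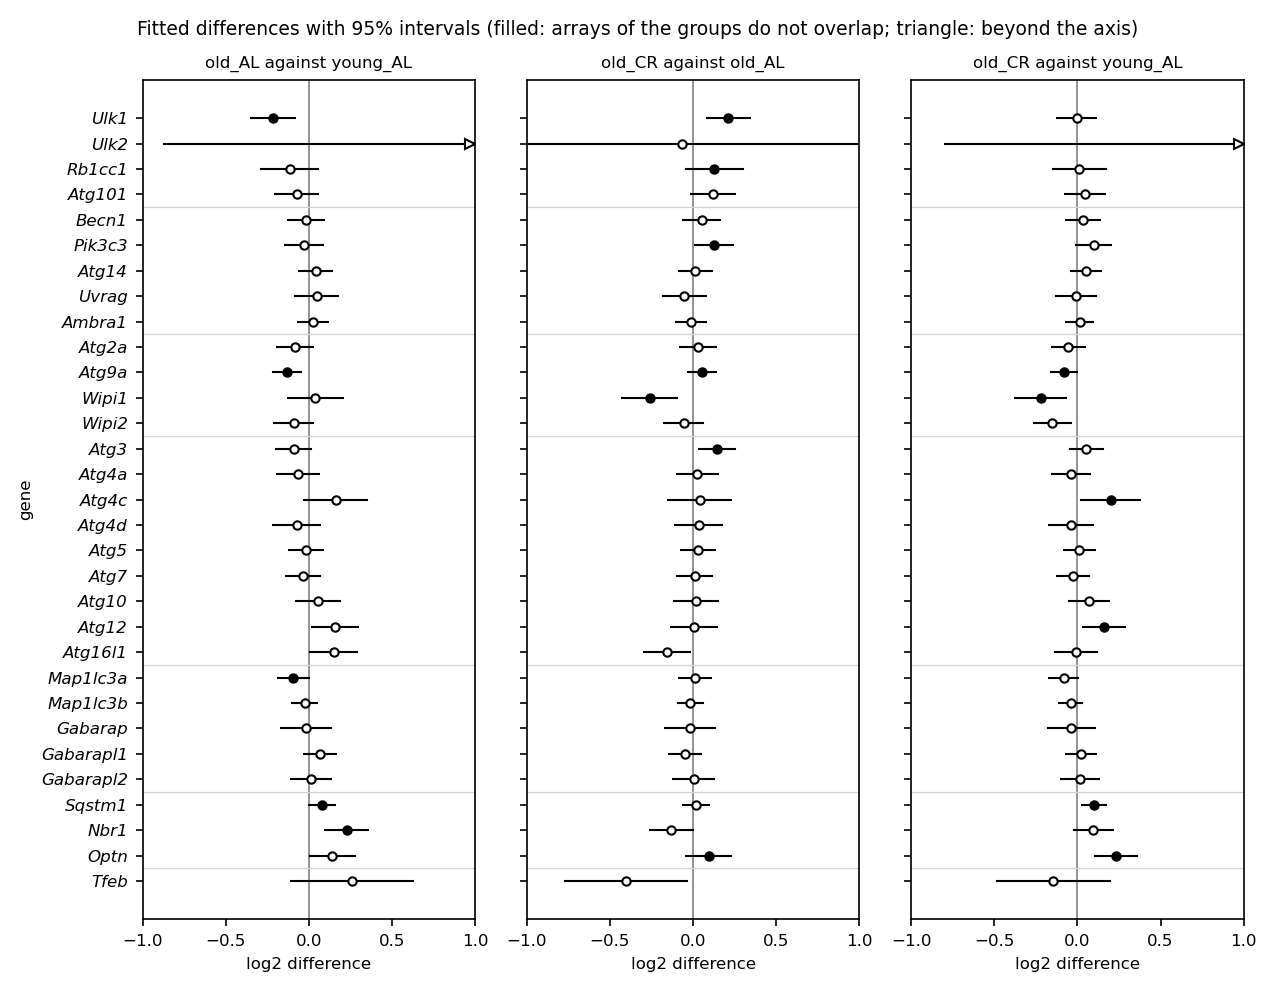
Points are fitted log2 differences with 95% intervals for the 31 genes in the 3 comparisons; filled points mark groups whose arrays do not overlap, and triangles the Ulk2 values beyond the axis. Apart from Ulk2 and Tfeb, the points lie within -0.26 and 0.23 in all 3 panels.

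The initiation step was measured through Ulk1 and Ulk2, the kinases, Rb1cc1, the scaffold known as FIP200, and Atg101, which steadies Atg13. Ulk1 had log2 signals of 2.27, 2.18, 2.41 and 2.36 in young_AL, 2.17, 2.06 and 2.05 in old_AL, and 2.32, 2.30, 2.25 and 2.34 in old_CR. Every old_AL array lay below every array of the other 2 groups, which overlapped each other. The difference was -0.22 ± 0.06 (SE; 3 against 4 arrays) in old_AL against young_AL, a change of -13.9% in level (limma, adjusted p = 0.0732). In old_CR against old_AL it was 0.21 ± 0.06 (adjusted p = 0.0802), and in old_CR against young_AL -0.0048 ± 0.05. Both of the first differences use the same 3 old_AL arrays. On old_AL 1 the signal was 5.86, and with that array included the differences were 0.73 and -0.73, so the direction rests on leaving it out.

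Rb1cc1 had signals of -0.49, -0.14, -0.34 and -0.20 in young_AL, -0.41, -0.47 and -0.35 in old_AL, and -0.28, -0.33, -0.25 and -0.27 in old_CR. The 4 old_CR arrays were above the 3 old_AL arrays, by 0.13 ± 0.08 (adjusted p = 0.305), and the young_AL arrays spread over both. Atg101 overlapped between groups in all 3 comparisons, with all its arrays between 0.42 and 0.66. Ulk2 was measured by a single spot per array, and young_AL 2 read -6.41 where the other 10 arrays lay between -2.35 and -2.11. Its difference in old_AL against young_AL was 1.12 ± 0.89 with that array and 0.093 without it, and in old_CR against young_AL 1.05 ± 0.82 and 0.025.

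In old_AL against young_AL, none of the 5 nucleation genes had an unadjusted p under 0.05, where 23.1% of all genes did. On the brightest probe of each, their differences ran from -0.027 to 0.047. These genes are Pik3c3, the lipid kinase VPS34, Becn1, its scaffold Beclin 1, Atg14 and Uvrag, which direct the kinase to different membranes, and Ambra1, which binds Beclin 1. Pik3c3 had signals of 0.94, 1.15, 0.95 and 1.05 in young_AL, 0.99, 0.97 and 1.02 in old_AL, and 1.13, 1.08, 1.12 and 1.14 in old_CR. The old_CR arrays were above all old_AL arrays, and the young_AL arrays reached into both ranges. The difference in old_CR against old_AL was 0.13 ± 0.05 (adjusted p = 0.161). Becn1 lay between 0.40 and 0.59 on all 11 arrays and Ambra1, on its brightest probe, between 0.58 and 0.71, each with overlapping groups. A second, much dimmer Atg14 probe differed by 0.43 ± 0.28 in old_AL against young_AL and by -0.39 ± 0.28 in old_CR against old_AL, with overlapping groups.

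Membrane supply was measured through Atg9a, a lipid scramblase that travels in vesicles, Atg2a, which transfers lipid to the growing membrane, and Wipi1 and Wipi2, which bind the lipid that VPS34 makes. Atg9a had signals of 2.93, 2.93, 3.003 and 3.04 in young_AL, 2.84, 2.84 and 2.85 in old_AL, and 2.91, 2.85, 2.91 and 2.91 in old_CR. All 3 groups were apart, with old_AL lowest and young_AL highest, although old_CR 2, at 2.848, all but touched old_AL 4, at 2.846. The difference in old_AL against young_AL was -0.13 ± 0.04, or -8.66% (adjusted p = 0.0891), in old_CR against old_AL 0.05 ± 0.04 (adjusted p = 0.387), and in old_CR against young_AL -0.078 ± 0.04 (adjusted p = 0.275). A second, dimmer Atg9a probe went the other way in the first 2 comparisons, by 0.14 ± 0.07 and -0.19 ± 0.07, so the direction for the gene is not settled.

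Wipi1 had signals of -2.21, -2.20, -2.22 and -2.28 in young_AL, -2.33, -2.21 and -2.03 in old_AL, and -2.54, -2.35, -2.52 and -2.39 in old_CR. Every old_CR array lay below every array fed ad libitum. The difference was -0.26 ± 0.07 against old_AL, or -16.5% (adjusted p = 0.0853), and -0.22 ± 0.07 against young_AL (adjusted p = 0.126). Against old_AL it was -0.18 without old_AL 4 (adjusted p = 0.177), -0.33 without old_AL 2 (adjusted p = 0.0442) and 0.25 with old_AL 1 included, where Wipi1 read -4.23. Wipi2 ran from -1.97 to -1.67 over the 11 arrays, and old_CR differed from young_AL by -0.15 ± 0.05 (adjusted p = 0.145) with overlapping groups. All 4 genes of this step had negative differences in old_CR against young_AL, with a median of -0.11. Over all genes tested, 11607 of 20849 had negative differences there, with a median of -0.017.

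**Figure D3:**
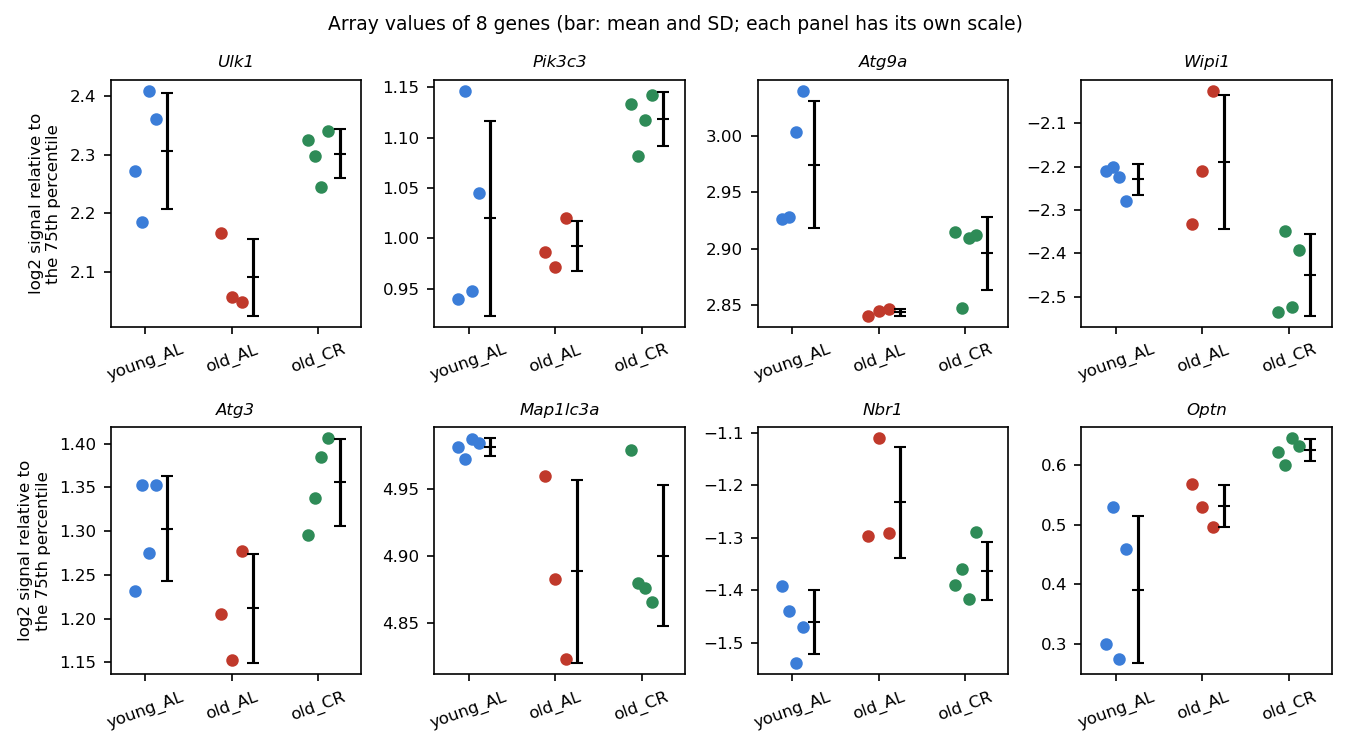
Points are the log2 signals of 8 genes on each array relative to the 75th percentile, and the bar beside them is the group mean with its SD; each panel has its own scale. The 3 old_AL arrays lie lowest for Ulk1, and the 4 old_CR arrays lie lowest for Wipi1 and highest for Optn.

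The conjugation enzymes attach Atg12 to Atg5 and the Atg8 proteins to lipid. Atg7 is the activating enzyme of both systems, Atg3 and Atg10 are the conjugating enzymes, Atg16l1 places the complex on the membrane, and the Atg4 proteases trim and recycle the Atg8 proteins. Tfeb, itself in the set, is a transcription factor known to bind the E-box core CACGTG within a longer element in promoters of lysosomal and autophagy genes. RefSeq promoters (GRCr8, 250 bases before the start of the gene to 50 after it) were found for 31 of the 35 listed genes, and CACGTG, which reads the same on both strands, was in 3 of those 31 (9.68%) against 6.65% of all 27457 promoters. The 3 were Atg3, Atg5 and Atg14. The stretches around the motif upstream of the start are shown for Atg3 (chr11:69159281-69159344, minus strand) and Atg5 (chr20:49380791-49380834, plus strand), because these enzymes are the members of the step that hold it; capitals mark CACGTG, and a match is a description of the letters.
Atg3: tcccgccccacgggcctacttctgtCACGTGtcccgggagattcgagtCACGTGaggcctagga
Atg5: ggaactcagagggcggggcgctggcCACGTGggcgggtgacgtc

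Atg3 had signals of 1.23, 1.35, 1.28 and 1.35 in young_AL, 1.21, 1.15 and 1.28 in old_AL, and 1.30, 1.34, 1.38 and 1.41 in old_CR. The old_CR arrays were above all old_AL arrays and overlapped young_AL. The difference in old_CR against old_AL was 0.14 ± 0.05, or 10.5% higher (adjusted p = 0.112). Atg5, with the same letters in its promoter, lay between -1.59 and -1.45 on all 11 arrays, and its groups overlapped.

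Atg12 had signals of -2.16, -2.07, -2.34 and -2.16 in young_AL, -1.95, -2.04 and -2.10 in old_AL, and -2.01, -2.02, -2.04 and -2.01 in old_CR. The 4 old_CR arrays lay close together and above every young_AL array, by 0.16 ± 0.06 on average (adjusted p = 0.170). Old_AL exceeded young_AL by a like 0.16 ± 0.06 (adjusted p = 0.174), with overlap. Atg4c had signals of -4.59, -4.37, -4.41 and -4.42 in young_AL, -4.42, -4.27 and -4.17 in old_AL, and -4.18, -4.36, -4.10 and -4.34 in old_CR. The old_CR arrays were above young_AL by 0.20 ± 0.08 (adjusted p = 0.212), with the nearest arrays at -4.36 and -4.37. Atg16l1 was 0.15 ± 0.06 higher in old_AL than in young_AL (adjusted p = 0.194) and 0.16 lower in old_CR than in old_AL (-0.16 ± 0.06, adjusted p = 0.156), with overlapping groups in both, and its 2 probes had the same sign. On the brightest probe of each, Atg4a, Atg4d, Atg7 and Atg10 overlapped between groups in every comparison. A second Atg4a probe had every old_AL array below every young_AL array, with a difference of -0.11 ± 0.04 (limma on every probe, adjusted p = 0.182).

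The Atg8 family holds the proteins that coat the autophagosome and bind the receptors. On the brightest probe of each and this scaling, none of its 5 genes had an unadjusted p under 0.05 in any comparison. No 95% interval reached beyond 1.14-fold there. Over all genes tested, 23.1%, 26.4% and 18.3% had an unadjusted p under 0.05 in the 3 comparisons. Under median centring, Map1lc3a and Map1lc3b passed as lower in old_AL against young_AL, where 14.2% of all genes passed in either direction. The Map1lc3a difference was then -0.19 (limma, adjusted p = 0.034). Map1lc3a, which encodes LC3A, had signals of 4.98, 4.97, 4.99 and 4.98 in young_AL, 4.96, 4.88 and 4.82 in old_AL, and 4.98, 4.88, 4.88 and 4.87 in old_CR. The young_AL arrays were almost equal and above all old_AL arrays, while old_CR 1 reached their level and the other old_CR arrays lay with old_AL. The difference in old_AL against young_AL was -0.093 ± 0.04, or -6.22% (adjusted p = 0.222), and it was 0.12 with all 12 arrays. Map1lc3b, for LC3B, the usual protein marker of autophagosomes, spanned 3.92 to 4.03 on its brightest probe, and its second probe had the opposite sign in all 3 comparisons, with overlapping groups. Gabarap, Gabarapl1 and Gabarapl2 overlapped between groups in every comparison, with differences from -0.048 to 0.069 on the brightest probes. Dimmer probes of the last 2 were less precise. The dimmest of 3 Gabarapl2 probes differed by -0.49 ± 0.42 in old_AL against young_AL and by 0.60 ± 0.42 in old_CR against old_AL, and the second Gabarapl1 probe by 0.18 ± 0.14 in the latter, all with overlapping groups.

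The cargo receptors link ubiquitinated cargo to the Atg8 proteins. All 3 genes, Sqstm1 (p62), Nbr1 and Optn (optineurin), had positive differences in old_AL against young_AL and an unadjusted p under 0.05 there, where 23.1% of all genes did (3030 higher and 1790 lower of 20849), and none passed after adjustment. Under median centring the Sqstm1 difference was -0.021, and its second probe went the other way. Nbr1 had signals of -1.39, -1.44, -1.54 and -1.47 in young_AL, -1.30, -1.11 and -1.29 in old_AL, and -1.39, -1.36, -1.42 and -1.29 in old_CR. The old_AL arrays were above all young_AL arrays, by 0.23 ± 0.06, or 17.0% (adjusted p = 0.0649), and old_CR lay between, overlapping both. In old_CR against old_AL the difference was -0.13 ± 0.06 (adjusted p = 0.184), and 0.012 with all 12 arrays, when the difference with age was 0.084.

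Optn had signals of 0.30, 0.53, 0.27 and 0.46 in young_AL, 0.57, 0.53 and 0.50 in old_AL, and 0.62, 0.60, 0.64 and 0.63 in old_CR. On this brightest probe the 4 old_CR arrays lay above all others. On each of the other 2 Optn probes, old_CR overlapped both other groups. The difference in old_CR against young_AL was 0.23 ± 0.06, or 17.6% higher (adjusted p = 0.0647), and the other 2 Optn probes gave 0.13 ± 0.05 and 0.17 ± 0.06. In old_CR against old_AL it was 0.093 ± 0.06 (adjusted p = 0.341), and 0.010 and 0.012 on the other probes. Without young_AL 2, the old_CR against young_AL difference was 0.28 (adjusted p = 0.0484). Marker lists of other cells moved between the same groups. The macrophage means above were higher in both old groups than in young_AL. So were those of 5 neutrophil markers of 10 listed (-4.53 to -3.70 in young_AL, -3.06 to -2.20 in old_AL, -3.41 to -2.83 in old_CR) and 4 adipocyte markers of 8 (-5.19 to -4.83, -3.83 to -3.18 and -3.87 to -3.07). The 10 satellite glia markers were lowest in old_CR (-0.12 to 0.015, -0.14 to -0.029 and -0.31 to -0.23). The ranges of 7 erythroid markers of 9 (1.17 to 1.96, 1.81 to 2.93 and 1.46 to 1.85) and of 12 myelinating Schwann cell markers (1.11 to 1.34, 0.90 to 1.18 and 0.77 to 1.15) overlapped between young_AL and each old group. In old_CR against young_AL, 9 of the 12 Schwann cell markers were lower and 0 higher at an unadjusted p under 0.05 (limma). Over all genes tested, 2389 were lower and 1425 higher of 20849. The median Schwann cell marker differed by -0.37, and 1 passed after adjustment. At that p (limma), 6 of the 7 erythroid markers were higher and 0 lower in old_AL against young_AL, with a median of 0.86. Of these, 1 passed after adjustment, and of all genes 3030 were higher and 1790 lower. In old_CR against old_AL, 5 were lower and 0 higher with a median of -0.66, against 4012 lower and 1491 higher of all genes. In old_CR against young_AL, 0 of the 7 had such a p. The part of these lists in the receptor values was not tested.

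Sqstm1 was read by 2 probes that disagreed. The brighter gave 3.43, 3.44, 3.44 and 3.48 in young_AL, 3.59, 3.49 and 3.505 in old_AL, and 3.54, 3.52, 3.55 and 3.57 in old_CR. Both old groups lay above young_AL on it, by 0.081 ± 0.03 (adjusted p = 0.204) and 0.098 ± 0.03 (adjusted p = 0.142). The second gave 2.26, 2.31, 2.31 and 2.29 in young_AL, 2.18, 2.07 and 2.11 in old_AL, and 1.91, 1.95, 2.05 and 1.92 in old_CR. On this probe the groups were fully apart in the opposite order, with young_AL highest and old_CR lowest. It was singled out after its values were seen. With every probe tested on its own, it fell in old_CR against young_AL, with a difference of -0.33 ± 0.04 (adjusted p = 0.00952), where 2.34% of all probes tested passed, and it was the only 1 of the 46 probes of the set to pass in any of the 3 comparisons. It differed by -0.17 ± 0.04 in old_AL against young_AL (adjusted p = 0.0706) and by -0.17 ± 0.04 in old_CR against old_AL (adjusted p = 0.0791). With all 12 arrays the old_CR against young_AL value was the same -0.33, with an adjusted p of 0.591.

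The log2 difference between the 2 Sqstm1 probes within an array is not moved by a constant added to all log2 values of that array. It is given as a description, since this pair was chosen after its values were seen. It averaged -1.16 ± 0.03 (SD, n = 4) in young_AL, -1.41 ± 0.01 (n = 3) in old_AL and -1.59 ± 0.06 (n = 4) in old_CR. On old_AL 1 it was -1.32, outside the range of the other old_AL arrays but below every young_AL array and above every old_CR array. The probes carry different RefSeq transcript accessions of the gene, and where they lie on it was not analysed here.

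**Figure D4:**
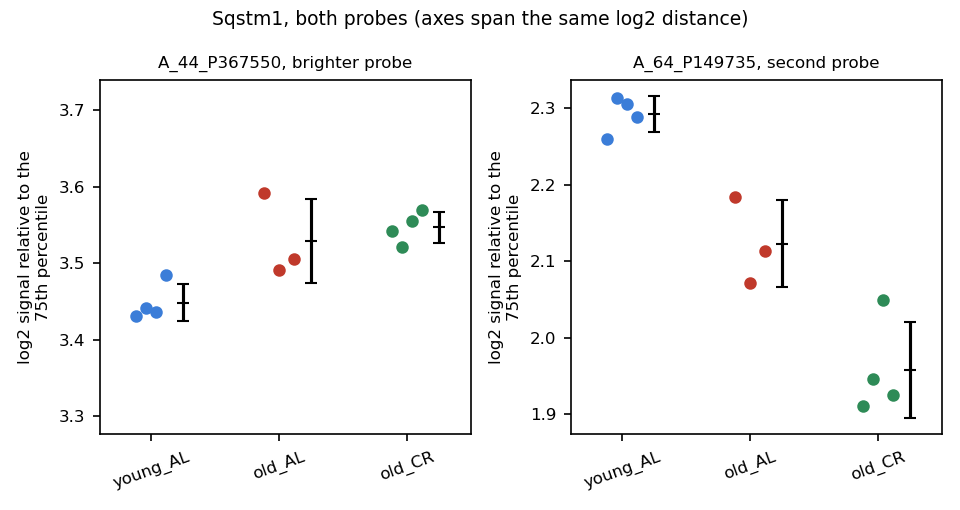
Points are the log2 signals of the 2 Sqstm1 probes on each of the 11 arrays, with the group mean and SD beside them; both axes span the same log2 distance. The brighter probe is lowest in young_AL, between 3.43 and 3.48, and the second probe is highest there, between 2.26 and 2.31.

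Tfeb, the transcription factor of lysosome and autophagy genes, was dim and variable. Its signals were -3.65, -3.88, -4.07 and -3.84 in young_AL, -3.91, -3.70 and -3.20 in old_AL, and -3.81, -4.06, -4.15 and -4.00 in old_CR. The groups overlapped, and the high value came from old_AL 4. The difference in old_CR against old_AL was -0.40 ± 0.16 (adjusted p = 0.161), -0.20 without old_AL 4 (adjusted p = 0.389), and 0.44 with all 12 arrays. On old_AL 1 Tfeb was not well above background.

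Genes beside the machinery in the pathway gave a like result. Of 88 neighbouring genes tested from 102 listed, 1 rose in old_AL against young_AL, where 3.24% of all genes passed, and 1 rose in old_CR against young_AL, where 2.41% did. None passed in old_CR against old_AL, where 1.06% of all genes did and none of the 88 passed with 12 arrays either. At an unadjusted p under 0.05 (limma) there were 15, 18 and 15 of the 88 in the age comparison, the diet comparison and old_CR against young_AL. Those are 17.0%, 20.5% and 17.0%, against the 23.1%, 26.4% and 18.3% of all genes given above. Ctsa, the lysosomal protective protein cathepsin A, rose from 3.91 to 3.99 in young_AL to 4.08 to 4.14 in old_AL, by 0.16 ± 0.03 (adjusted p = 0.0358), among 28 lysosomal genes tested. With all 12 arrays that difference was -0.042. Rragd, a Rag GTPase that brings mTORC1 to the lysosome, rose from -1.91 to -1.87 in young_AL to -1.72 to -1.63 in old_CR, by 0.21 ± 0.04 (adjusted p = 0.0373), among 20 genes of mTORC1 and AMPK signalling; with all 12 arrays the difference was the same 0.21, with an adjusted p of 0.99997.

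None of the 13 other cargo receptor and mitophagy genes, 11 fusion genes, 10 accessory genes or 6 genes of MiT and FoxO factors and their regulators passed in any comparison. The closest were Pink1, the kinase that tags damaged mitochondria, at 0.20 ± 0.04 in old_CR against young_AL (adjusted p = 0.0513), and Stx17, the autophagosomal SNARE, at -0.26 ± 0.07 in old_AL against young_AL (adjusted p = 0.0652). Sh3glb1, a Beclin 1 partner, was at -0.16 ± 0.04 in old_CR against old_AL (adjusted p = 0.0721), and Flcn, folliculin, which acts on the Rag GTPases, at 0.13 ± 0.04 in old_CR against young_AL (adjusted p = 0.127).

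**Figure D5:**
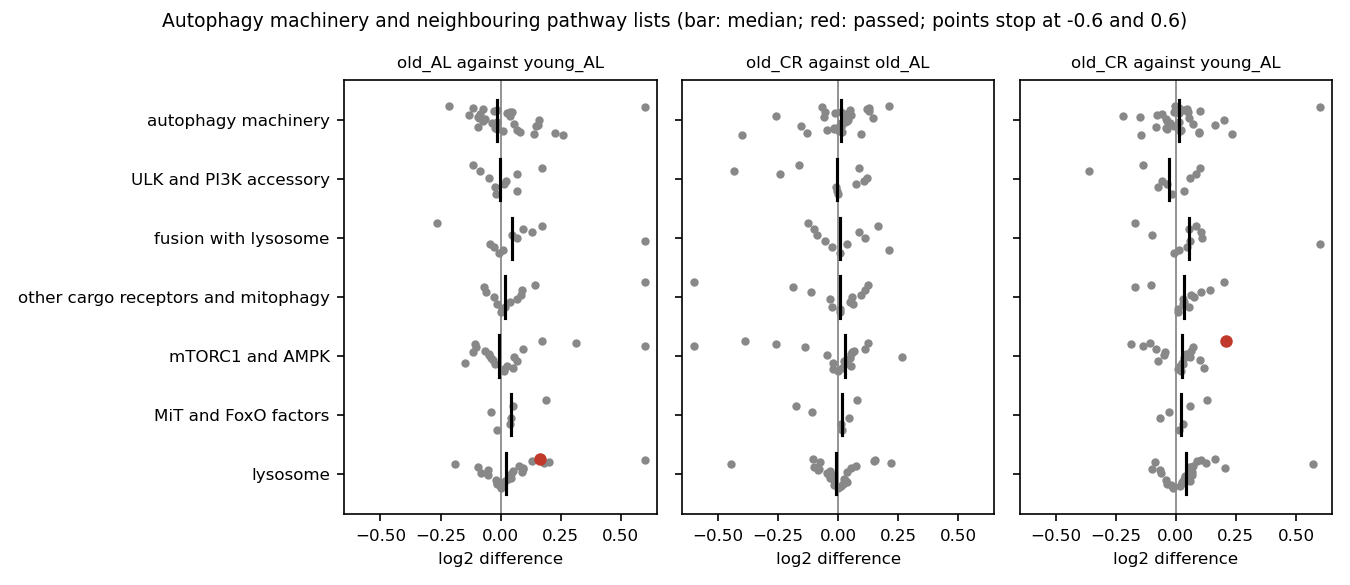
Each point is a gene's fitted log2 difference in 1 of the 3 comparisons, by list; bars are list medians, red points passed the test, and points stop at -0.6 and 0.6. Only Ctsa in old_AL against young_AL and Rragd in old_CR against young_AL are red, and the medians of the autophagy machinery are -0.016, 0.012 and 0.012.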

How the data were processed

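The authors deposited linear spot intensities made with Agilent Feature Extraction 10.7, per the submitters' processing notes; background had been subtracted and spatial trends removed, per the file headers. The authors' deposited series table holds the same intensities (largest difference 0) with no scaling between arrays. The deposited intensities were turned into log2 values minus each array's 75th percentile. Control spots were dropped, outlier-flagged spots set missing, replicate spots averaged, and a probe kept where at least 0.5 of its spots were well above background on at least 4 arrays. The brightest probe stood for a gene. Symbols came from RefSeq (GRCr8), which matched 17998 of 30367 probes. limma 3.58.1 (R 4.3.3) fitted all 3 groups on 11 arrays; p-values were Benjamini-Hochberg adjusted over all genes tested, with a threshold of 0.05, and ± after a difference is its standard error. The script was tested on simulated data. The number of arrays limits the precision. Alternatives changed the arrays, scaling, background correction, filter, probe rule, spread and pairing. Members, lists and the array left out were chosen with earlier results of these data known. Array values are printed for members whose groups do not overlap in a comparison, that pass, or that have the smallest p of their step, and context genes by passing or smallest p. The series describes 4 rats a group, and the labels give an array its group and a number but no animal, so p-values measure the spread between these arrays.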

Additional observations from a re-analysis of the deposited data

Results flagged for a closer look

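In 62 groups of 4 arrays checked, 6 had an end array whose gap to its neighbour took a larger share of the group's range than Dixon's 95% critical value allows, and chance flags about 1 in 20 groups. Ulk2 read -6.41 on young_AL 2, against a nearest value of -2.35; Ulk2 has a single spot per array. In old_CR, Uvrag read -2.44 on array 1 (nearest -2.62), Atg16l1 1.505 on array 1 (nearest 1.39), Map1lc3a 4.98 on array 1 (nearest 4.88), Atg9a 2.85 on array 2 (nearest 2.91) and Gabarapl1 6.98 on array 3 (nearest 6.88).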

How the results depend on the processing

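The directions depend on the scaling and on old_AL 1. Median centring moved the median of all genes by -0.10 in old_AL against young_AL and 0.10 in old_CR against old_AL, and the share of higher calls over all genes ran from 61.5% to 26.2% (quantile), 13.1% (median centring) and 86.3% (normexp) in the first and from 25.2% to 59.3%, 86.7% and, with normexp, 506 of 4732 in the second. Members passing, 0 in each comparison, became 6 of 31 (all lower, where 14.2% of all genes passed) and 3 (all higher, 10.1%) with median centring, and 4 (18.4%), 1 (22.7%) and 1 (2.20%) with normexp. Array weights gave 1 (4.36% of all genes), 1 (5.80%) and 2 (8.51%), an intensity trend 3 in old_AL against young_AL (5.22%) and 1 in old_CR against young_AL (3.55%), and every probe on its own 1 in the last (2.34% of all probes). With an array left out the counts were 0 to 0, 0 to 1 and 0 to 1. The 1s were Wipi1 without old_AL 2, where 4.45% of all genes passed, and Optn without young_AL 2, where 0.728% did. The median member difference in old_AL against young_AL was -0.045 with 12 arrays, -0.049 with quantile normalization, -0.12 with median centring, 0.011 with normexp, 0.016 over every probe and -0.016 to 0.015 with an array left out. In old_CR against old_AL it was 0.078, 0.040 and 0.11 under the first 3 and 0.0052 to 0.035 with an array left out; in old_CR against young_AL the latter range was -0.0065 to 0.030. With 12 arrays the sign changed for 12 of the 31 members in old_AL against young_AL and 15 in old_CR against old_AL. Among the member differences followed, old_AL against young_AL reversed for Map1lc3a (0.12) and Ulk1 (0.73), and old_CR against old_AL for Nbr1 (0.012), Tfeb (0.44), Ulk1 (-0.73) and Wipi1 (0.25). Median centring reversed Sqstm1 in old_AL against young_AL (-0.021). The mean of a gene's probes reversed Atg9a (0.0055) and Sqstm1 (-0.044) there, Atg9a in old_CR against old_AL (-0.071) and Sqstm1 in old_CR against young_AL (-0.12). The last 4 follow from averaging opposed probes, and the reversals with 12 arrays from adding old_AL 1. For Sqstm1 under median centring the cause was not tested. Of the member differences followed, 293 under other settings and 295 with an array left out kept direction and side of the threshold. The second Sqstm1 probe, added after seeing the data, passed in old_CR against young_AL in 11 of 11 leave-outs and 6 of 8 other settings (adjusted p 0.00230 to 0.591).

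Correlations of arrays with the same replicate number in the source names ran from -0.062 to 0.085. The array old_AL 1, left out elsewhere, was included here, so the pairs with old_AL were not read as showing or excluding pairing. Between old_CR and young_AL the correlations ran from -0.012 to 0.063, which gave little sign of pairing. Titles carry other numbers, and the 5 pairs of arrays that share one correlated at -0.0085 to 0.10, again with old_AL 1 included. The pair of old_CR and young_AL arrays among them was at 0.10. No block on the title numbers was fitted. With the replicate number as a block, 0 members passed in each comparison, the medians were -0.018, 0.022 and 0.012, 20, 1 and 17 of all genes passed against 676, 222 and 503, and the second Sqstm1 probe had an adjusted p of 0.0762. Fitting only the 2 groups compared, which for the old groups is the within-slide fit, gave 0 members in each and 27, 0 and 836 of all genes. Slide as a block was not run, since no slide holds both ages.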

Other observations

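On old_AL 1, the array left out, 17 of the 31 autophagy genes read below the range of the other 11 arrays, 8 above it and 5 inside it, and 1 (Atg10) had no unflagged spot. The farthest above was Ulk1 at 5.86, against 2.05 to 2.41 elsewhere, and the farthest below was Tfeb at -6.98, against -4.15 to -3.20. Gabarapl2 read 6.32 against 5.01 to 5.22, and Gabarap 2.57 against 3.89 to 4.21. Over the 13 autophagy genes with more than 1 probe, all probes had the same sign for 7 in old_AL against young_AL, 5 in old_CR against old_AL and 11 in old_CR against young_AL.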
